A study of Mus musculus with 12 samples.

Results

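The last Mek1 allele of the lung mesenchyme was compared on a background without Mek2: 4 lung specimens of genotype Mek1flox/flox;Mek2-/-;Dermo1+/Cre (called Mek1flox/flox lungs here) were set against 4 specimens of genotype Mek1+/flox;Mek2-/-;Dermo1+/Cre (called Mek1+/flox lungs). The members are all detected genes: of the 16593 genes named on the Illumina bead array, 8311 had a probe with a detection p below 0.01 (called above background here) on 4 or more of the 12 arrays. All lungs came from 129/Sv mouse embryos at E15.5 and all carried Dermo1+/Cre, which drives recombination from the Twist2 locus in embryonic mesenchyme, so that floxed Mek1 is expected to be lost in mesenchymal cells and their descendants and kept in epithelium. Both groups were Mek2-/- in every cell per their genotype labels, and 4 further specimens that carried only Dermo1+/Cre served as a control that shares the driver. Whether each of the 12 specimens was 1 lung or pooled lungs is not stated in the labels, and p-values measure the spread between specimens.

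MEK1 and MEK2 are paired kinases that pass signals from receptor tyrosine kinases to ERK, and either can largely stand in for the other in many tissues. In the embryonic lung, mesenchyme and epithelium signal to each other: mesenchymal FGF ligands act on epithelial receptors and drive branching, while the epithelium sends Hedgehog and other signals back. At this stage branching continues at the distal tips, and in the proximal airways the first secretory (club) and multiciliated cells begin to form. The mesenchyme at the same time gives smooth muscle and cartilage, and a mesothelium covers the organ.

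The RNA was from whole lung. Markers of lung epithelium (Nkx2-1, Sftpc and Cdh1), lung mesenchyme (Foxf1, Tbx4 and Tcf21) and vessels (Pecam1 and Cdh5) were above background on every array, whereas the liver genes Alb and Afp, the leukocyte gene Ptprc and the thymus gene Rag1 were above background on 0 of 12. The silent Ptprc probe does not show an absence of leukocytes, since 17 macrophage genes were measured. The cardiac gene Myh6 was above background on 4 Mek1flox/flox, 4 Mek1+/flox and 3 control arrays, Myl7 on 3 of each group and Nppa on 0. The skeletal muscle gene Ckm was above background on 3 Mek1flox/flox, 1 Mek1+/flox and 0 control arrays, and Myog on 1, 0 and 1. Ptcra, another thymus gene, was above background on 1 control array only. The Y-linked gene Eif2s3y was above background on Mek1flox/flox replicates 2 and 4, on Mek1+/flox replicate 2 and on control replicate 3, so that the groups differed in the number of arrays with male signal. Raw upper quartiles of intensity averaged 281.3 on Mek1flox/flox and 255.6 on Mek1+/flox arrays, a difference within the spread (exact permutation test, two-sided p = 0.2, the smallest possible being 0.0286).

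The genotype could be read only in part. The probe for Map2k1, which encodes MEK1, gave no signal above background on any of the 12 arrays, so recombination of Mek1 was not checked. Map2k2, which encodes MEK2, measured 10.94, 11.14, 10.62 and 10.71 on Mek1flox/flox arrays and 10.41, 10.76, 10.60 and 10.54 on Mek1+/flox arrays (normalized log2 intensity), against 11.48 to 11.66 on controls. Both groups without Mek2 lay below every control array but kept signal far above background, and whether the probe lies in the deleted part of the gene was not checked. A second, dim Map2k2 probe was above background on 1 Mek1flox/flox, 0 Mek1+/flox and 4 control arrays, with a log2 difference of -0.05. With the brighter probe, Map2k2 differed between Mek1flox/flox and Mek1+/flox lungs by 0.27 ± 0.12 (log2 difference ± SE, limma adjusted p = 0.387). Twist2, whose locus carries Cre, differed by 0.01 ± 0.15 (limma adjusted p = 0.995). Among the 40 measured genes nearest to Map2k1 in gene order, 20 on each side, 0 passed the adjusted threshold of limma described below, which 0.566% of all genes passed. An unadjusted p under 0.05 was reached by 5 of the 40, near the 11.8% of all genes, and the median log2 difference of the 40 was -0.03. Around Map2k2 the median of 40 neighbours was 0.02, again with 0 past the adjusted threshold.

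Few genes differed between Mek1flox/flox and Mek1+/flox lungs past an adjusted threshold, and their number depended on the setting. With limma over all genes, 47 of 8311 had an adjusted p under 0.05 (0.566%), of which 35 were higher (0.421%) and 12 lower (0.144%) in Mek1flox/flox lungs. By fitted log2 difference, with dim values taken as measured, 41 of them differed at least 1.5-fold and 11 at least 2-fold. The first count includes Sgsm1, Pifo, Dipk2a and Agtr1a, and the second Sgsm1, for which only smaller lower bounds are given below. All 47 had Mek1flox/flox values wholly beyond the Mek1+/flox values. So did 527 of all genes tested (6.34%), 349 of them above (4.20%) and 178 below (2.14%). With upper-quartile scaling in place of quantile normalization 25 passed, and the share that was higher was 64.0%, against 74.5%. An unadjusted p under 0.05 was reached by 977 genes (11.8%). The median log2 difference of all genes was 0.01 and 51.8% were above 0. In whole-lung RNA a gene that is lower because fewer cells express it cannot be told apart from one with less RNA per cell, and the same holds for higher values.

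The count rests on a narrow set of arrays. It was 3 when only the 8 arrays compared were fitted and 2 with the Y-linked signal as a covariate, and it was 2 without Mek1flox/flox replicate 2, 3 without Mek1flox/flox replicate 4, 5 without Mek1+/flox replicate 4 and 16 without Mek1flox/flox replicate 3. It was 22 without Mek1+/flox replicate 1 or 3, 26 without control replicate 2, and between 34 and 44 without each other array. The larger number of rises was not kept throughout: the share of calls that were higher was 33.3% without Mek1flox/flox replicate 4, 40% without Mek1+/flox replicate 4, and 50% without Mek1flox/flox replicate 2 or with the Y-linked covariate. Timmdc1 and Mycl passed under each of the 12 omissions, Trim10 passed under 11, and Cyp2f2, Ccl21a, Acss1, Fgf1 and Dipk2a passed under 9. Agtr1a passed under 0, and Mcidas, Slc4a1, Asap2 and Hspa2 under 1. No gene past the threshold changed direction under any alternative run. That was largely set by their selection, since the 2 groups did not overlap in any of these genes.

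**Figure D1:**
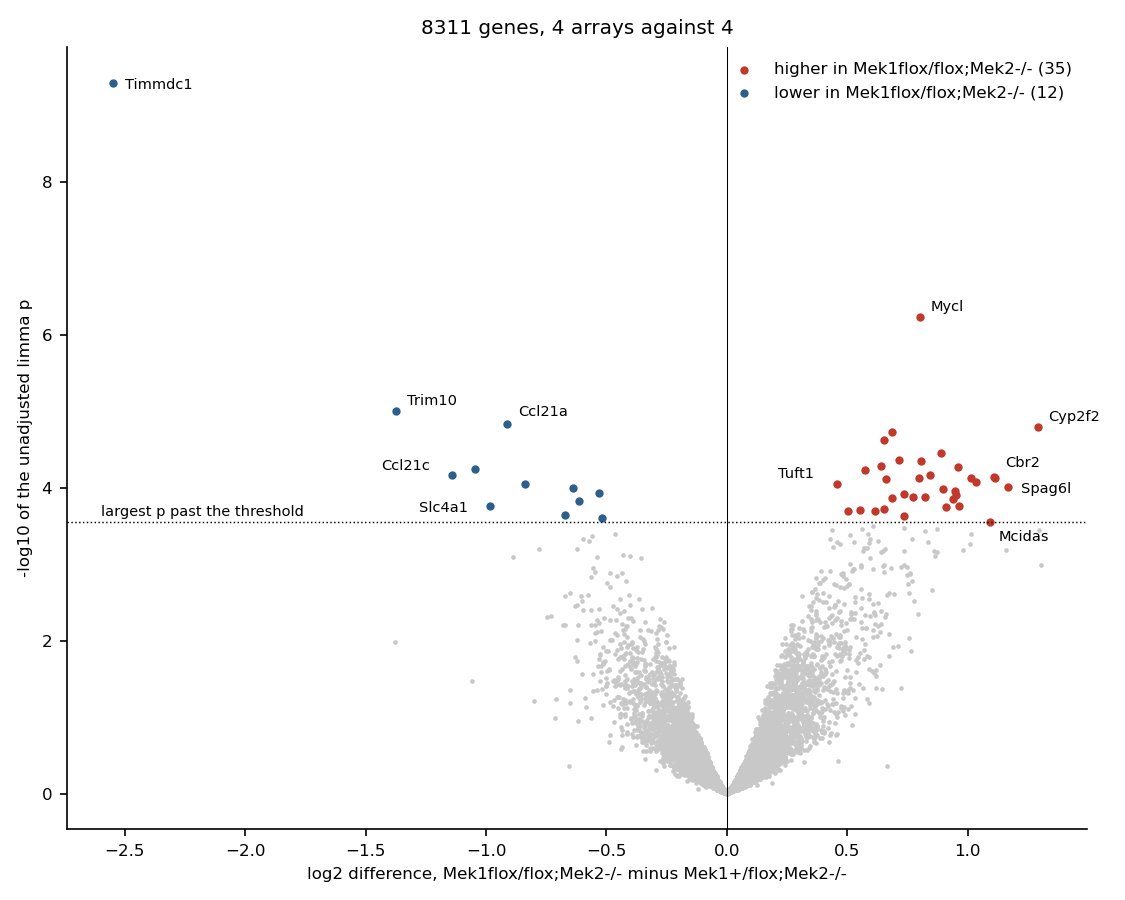
Log2 difference (Mek1flox/flox;Mek2-/- minus Mek1+/flox;Mek2-/-, x axis) against -log10 of the unadjusted limma p (y axis) for 8311 genes, 1 point a gene. Red points are the 35 genes that rose, blue points the 12 that fell, and Timmdc1 and Mycl stand apart from the other genes past the threshold.

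The largest change belonged to Timmdc1, a mitochondrial inner-membrane protein that assembles respiratory complex I. It measured 5.66, 5.84, 5.60 and 6.11 in Mek1flox/flox lungs, against 8.32, 7.97, 8.64 and 8.48 in Mek1+/flox lungs, and 9.47, 9.14, 9.09 and 9.51 in controls. The 3 groups did not overlap, with Mek1flox/flox lungs lowest and controls highest. Timmdc1 fell by 2.55 ± 0.16 on the log2 scale, to 0.171 of the Mek1+/flox level (limma adjusted p = 4.2e-06), and stayed between -2.68 and -1.52 over all alternatives. Timmdc1 had 1 detected probe, so its fall was not checked with another. None of its 40 measured neighbours on chromosome 16 passed the threshold, which 0.566% of all genes passed. With so low a share, that count does not set this region apart from others. The median difference of the 40 was -0.03.

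Timmdc1 was the only gene past the threshold among the measured genes of complex I. Of 42 measured subunits and assembly factors, 1 fell (Timmdc1, 2.38% of the list, where 0.144% of all genes fell) and 0 rose. The median was -0.07, with 32 members below 0. An unadjusted p under 0.05 was reached by 3 of the 42, all 3 negative, where 11.8% of all genes reached it. Relative to the Mek1+/flox mean, the list mean, Timmdc1 included, was -0.14, -0.13, -0.14 and -0.20 in Mek1flox/flox lungs. It was 0.02, -0.02, -0.11 and 0.10 in Mek1+/flox lungs, so the groups did not overlap. The subunit Ndufa5 stood at -0.22 ± 0.08 (limma adjusted p = 0.32) and Ndufa4, now assigned to complex IV, at -0.21 ± 0.09 (limma adjusted p = 0.36). Both had Mek1flox/flox values wholly below the Mek1+/flox values without passing the test. With Timmdc1 these made 3 of 42, where 2.14% of all genes lay wholly below. The subunit Ndufb2, above background on 3 arrays of each group, stood at -0.59 ± 0.28 (limma adjusted p = 0.44).

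Among genes of airway secretory cells, Cyp2f2 and Cbr2 rose. Cyp2f2, the cytochrome P450 that is abundant in mouse club cells, measured 8.67, 8.92, 8.35 and 9.08 in Mek1flox/flox lungs, against 7.35, 7.5, 7.77 and 7.22 in Mek1+/flox lungs. Controls lay between 6.88 and 7.75, overlapping the Mek1+/flox lungs. Its rise was 2.45-fold (log2 1.29 ± 0.20, limma adjusted p = 0.0261). Cbr2, a carbonyl reductase of the airway, measured 8.23, 8.81, 8.24 and 8.84 in Mek1flox/flox lungs, against 7.40, 7.34, 7.71 and 7.21 in Mek1+/flox lungs. Replicates 2 and 4 were the highest Mek1flox/flox lungs, and the lowest still lay above every Mek1+/flox lung and every control, whose highest value was 7.53. Cbr2 rose 2.17-fold (limma adjusted p = 0.0303).

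Of the 20 genes listed for club and secretory cells, 6 were measured, 2 rose (33.3%, where 0.421% of all genes rose) and 0 fell, with a median log2 difference of 0.93, against 0.01 over all genes. The members that did not pass were Hp, haptoglobin, at 1.16 ± 0.26 (limma adjusted p = 0.068), Cldn10, a tight-junction protein of club cells, at 0.56 ± 0.13 (limma adjusted p = 0.0887), Aldh1a1 at 0.75 ± 0.19 and Gsto1 at 0.01 ± 0.09. Scgb1a1, the secretoglobin that defines mature club cells, was too dim to test: it was above background on 2 Mek1flox/flox arrays, 0 Mek1+/flox arrays and 1 control array. The mean over the 6 members, relative to the Mek1+/flox mean, was 0.80, 0.87, 0.59 and 0.99 on the Mek1flox/flox arrays, against 0.08, 0.03, 0.09 and -0.19 on the Mek1+/flox arrays. The groups did not overlap, and Mek1flox/flox replicate 3 was the lowest of its group.

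Of 37 measured cytochrome P450, glutathione and detoxification genes, 4 rose (10.8%, where 0.421% of all genes rose), 0 fell, and the median was 0.07. The 4 were Cyp2f2, Cbr2, Cyp2s1 and Aox3. Cyp2s1, an epithelial P450, measured 7.42, 7.88, 7.52 and 8.04 in Mek1flox/flox lungs, against 6.88, 6.92, 6.83 and 6.18 in Mek1+/flox lungs, where replicate 4 was far below the other Mek1+/flox lungs. It rose 2.02-fold (limma adjusted p = 0.0303). Aox3, an aldehyde oxidase, rose 1.66-fold (limma adjusted p = 0.0335). Fmo1, a flavin monooxygenase, stood at -0.65 ± 0.17 (limma adjusted p = 0.14) and the glutathione transferase Gstt3 at 0.66 ± 0.15 (limma adjusted p = 0.068). Cyp2f2 and Cyp2s1 are next to each other among measured genes of chromosome 7.

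Several further genes that rose are in no list and were picked out as calls. Lypd2, a member of the LY6 family, measured 9.76, 9.97, 9.83 and 10.20 in Mek1flox/flox lungs, against 9.35, 9.35, 8.88 and 8.80 in Mek1+/flox lungs. All controls, at 8.65 to 9.02, lay below the lowest Mek1flox/flox lung. Lypd2 rose 1.79-fold (limma adjusted p = 0.0303). Scnn1g, the gamma subunit of the epithelial sodium channel, rose 1.75-fold, and Cxcl15, a chemokine made by lung epithelium, rose 1.56-fold (limma adjusted p = 0.0303 for both). Espn, an actin-bundling protein, rose 1.47-fold and Chst5, a carbohydrate sulfotransferase, 1.42-fold (limma adjusted p = 0.039 for both).

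**Figure D2:**
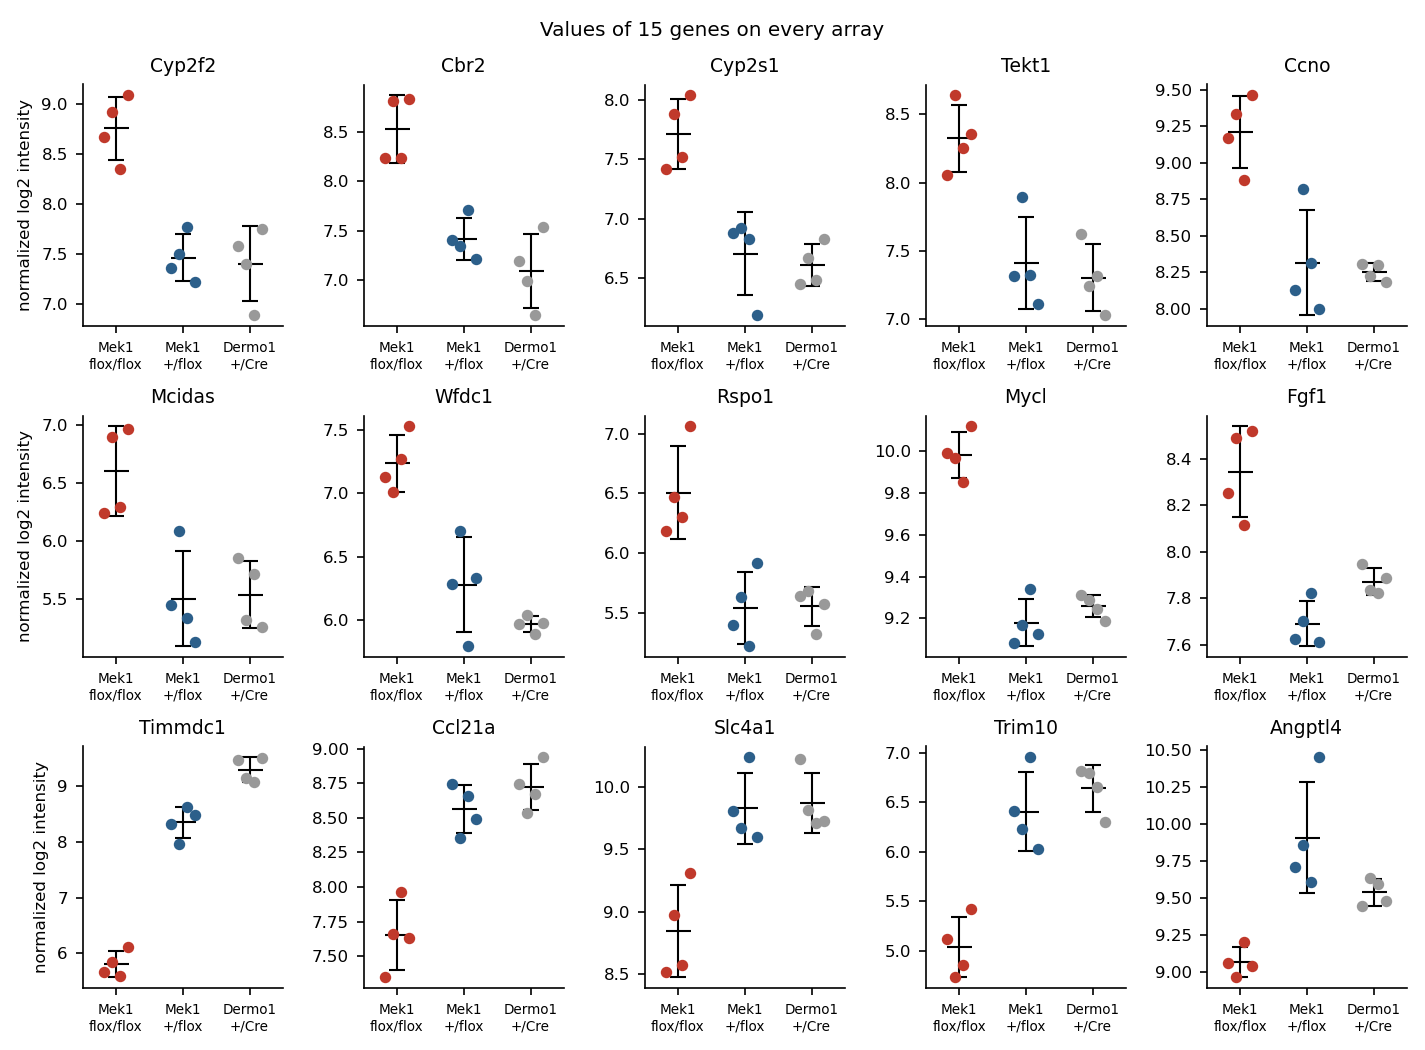
Normalized log2 intensity (y axis, own scale in each panel) of 15 genes past the threshold on every array, by genotype from left to right: Mek1flox/flox;Mek2-/-, Mek1+/flox;Mek2-/- and Dermo1+/Cre controls (4 arrays each; bars, mean ± SD). In all 15 panels the Mek1flox/flox points lie wholly beyond the Mek1+/flox points, and Timmdc1 is at 5.60 to 6.11 in Mek1flox/flox lungs, against 7.97 to 8.64 in Mek1+/flox lungs.

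The second group of rising genes belongs to multiciliated cells, the cells that beat mucus along the airway. These cells form when Mcidas (multicilin), with E2F factors, switches on a program for making many centrioles that includes the cyclin Ccno. RFX factors and Foxj1 then drive the genes of the axoneme. Of 50 genes listed, 21 were measured, 7 rose (33.3%, where 0.421% of all genes rose) and 0 fell, with a median of 0.72. The other 8 arrays alone would not have carried 4 members (Pifo, Cfap206, Sntn and Cfap53) past the detection filter, and without these 6 of 17 rose. The list was drawn up with results of these data known, so its count is not independent evidence of a direction. Of its members, 12 were above background on all 8 arrays and 3 of these rose (Ccno, Tekt1 and 1700016K19Rik). When only genes above background on all 8 arrays were tested, the median of the list was 0.80, and with the authors' deposited log2 values it was 0.33.

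The regulators of centriole formation were both higher. Ccno measured 9.17, 9.33, 8.88 and 9.46 in Mek1flox/flox lungs, against 8.13, 8.82, 8.31 and 8.0 in Mek1+/flox lungs. The highest Mek1+/flox lung, replicate 2, came within reach of the lowest Mek1flox/flox lung, replicate 3, and controls lay at 8.18 to 8.31. Ccno rose 1.86-fold (log2 0.90 ± 0.16, limma adjusted p = 0.0324). Mcidas measured 6.25, 6.90, 6.29 and 6.97 in Mek1flox/flox lungs, against 5.45, 6.08, 5.34 and 5.14 in Mek1+/flox lungs, where it was above background on 1 array, so that its fold is taken against a group mostly at background. It rose 2.14-fold and stood at the edge of the threshold (log2 1.09 ± 0.22, limma adjusted p = 0.0499). Ccno and Mcidas are neighbours on chromosome 13. Foxj1, above background on 3 arrays of each group, stood at -0.22 ± 0.17 (limma adjusted p = 0.674), and Rfx2 at 0.29 ± 0.10 (limma adjusted p = 0.28).

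Axonemal genes rose as well. Tekt1, a tektin that stabilises axonemal doublets, measured 8.05, 8.64, 8.25 and 8.35 in Mek1flox/flox lungs, against 7.32, 7.89, 7.32 and 7.11 in Mek1+/flox lungs. It rose 1.88-fold (limma adjusted p = 0.0381), and a second detected probe gave 0.74. Spag6l, a protein of the central pair, measured 6.33, 6.99, 6.89 and 6.75 in Mek1flox/flox lungs, against 5.13, 6.12, 5.57 and 5.46 in Mek1+/flox lungs, where 2 arrays were above background. It rose 2.25-fold (limma adjusted p = 0.0321). In both genes Mek1+/flox replicate 2 was the highest of its group and Mek1flox/flox replicate 1 the lowest of its own.

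Pifo, a protein of the ciliary base, measured 5.58, 5.90, 6.08 and 5.82 in Mek1flox/flox lungs, against 5.41, 5.0, 4.66 and 4.50 in Mek1+/flox lungs. It was above background on all Mek1flox/flox arrays and on 0 Mek1+/flox and 0 control arrays, and was at least 1.30-fold higher. It entered the test only through the group in which it is high and so had to differ, and its values are a description. For a bound of this kind, the floor on each dim array was the lowest detected signal of that array (or the probe itself, if brighter), and the mean of the bright group was divided by it. Riiad1 measured 6.35, 7.14, 7.0 and 6.99 in Mek1flox/flox lungs, against 5.98, 5.99, 5.62 and 6.09 in Mek1+/flox lungs, and rose 1.93-fold (limma adjusted p = 0.0335). Control replicate 1, at 6.35, was level with the lowest Mek1flox/flox lung. The cDNA 1700016K19Rik rose 2.16-fold (limma adjusted p = 0.0303).

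Another pair of cilia genes outside the list also passed, and both were picked out after their values were seen. Dnaaf1, which assembles dynein arms, measured 6.0, 6.10, 6.60 and 6.45 in Mek1flox/flox lungs, against 5.53, 5.42, 5.65 and 4.80 in Mek1+/flox lungs, with 1 Mek1+/flox array above background and the others at background, and rose 1.92-fold (limma adjusted p = 0.0336). Dnajb13, a radial spoke protein, measured 6.51, 6.45, 6.23 and 6.33 in Mek1flox/flox lungs, against 5.67, 5.90, 5.26 and 5.41 in Mek1+/flox lungs, and rose 1.77-fold (limma adjusted p = 0.0335). Of the members that did not pass, Rsph1, another radial spoke protein, stood at 1.30 ± 0.27 (limma adjusted p = 0.0559) and Dynlrb2, a dynein light chain, at 1.30 ± 0.31 (limma adjusted p = 0.0887). In both, Mek1flox/flox replicate 1 was the lowest of its group. At the other end of the list Rsph9 stood at 0.06 ± 0.12 and Traf3ip1 at 0.00 ± 0.19.

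**Figure D3:**
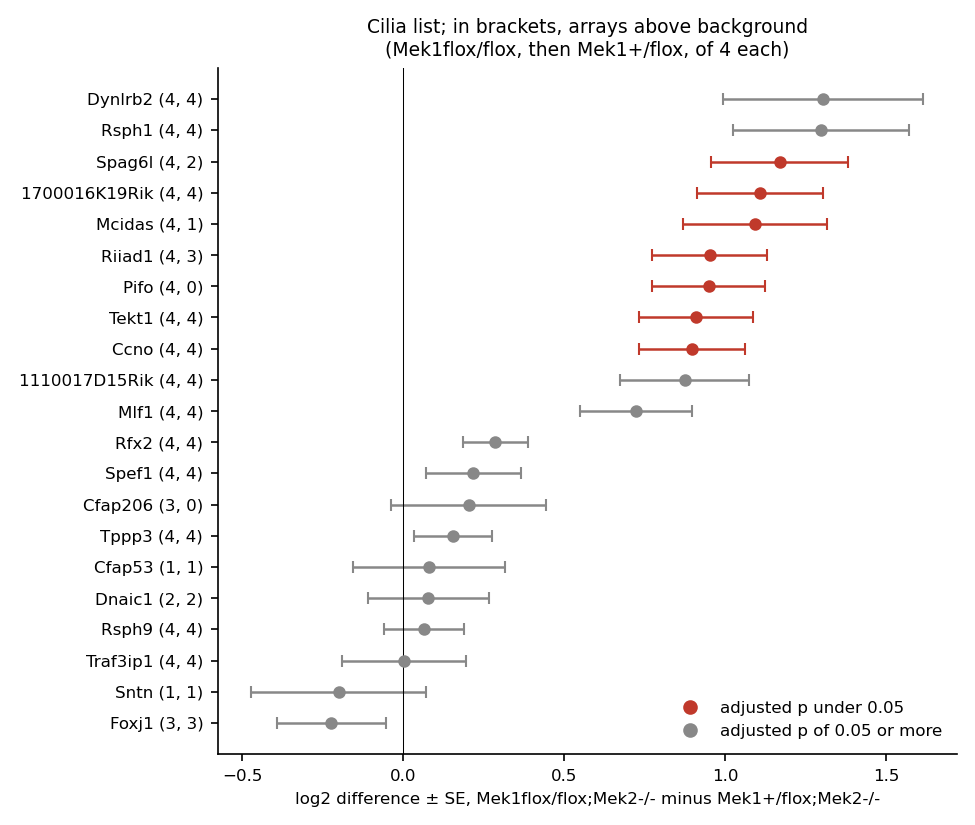
Log2 difference ± SE (x axis, Mek1flox/flox;Mek2-/- minus Mek1+/flox;Mek2-/-) of the 21 measured genes of the cilia list, with the number of arrays above background in Mek1flox/flox and then Mek1+/flox lungs in brackets. The 7 red genes rose, 11 genes lie at 0.72 or above, and the remaining genes lie between -0.22 and 0.29.

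The promoters of the cilia genes that rose are shown because the RFX factors that activate such genes read a motif, the X-box, whose core arm is GTTGCC, which reads GGCAAC on the other strand. The 250 bases upstream of the annotated start were taken from RefSeq, build GRCm38.p6, and searched on both strands for these 6 letters only. Windows were found for 5 of the 7 genes, and 4 held the letters: Ccno (chr13:112987552-112987801, plus strand), Mcidas (chr13:112993618-112993867, plus strand), Pifo (chr3:106001498-106001747, minus strand) and Tekt1 (chr11:72361883-72362132, minus strand). They are printed 5′ to 3′ in the direction of the gene, with the matched letters in capitals.
Ccno: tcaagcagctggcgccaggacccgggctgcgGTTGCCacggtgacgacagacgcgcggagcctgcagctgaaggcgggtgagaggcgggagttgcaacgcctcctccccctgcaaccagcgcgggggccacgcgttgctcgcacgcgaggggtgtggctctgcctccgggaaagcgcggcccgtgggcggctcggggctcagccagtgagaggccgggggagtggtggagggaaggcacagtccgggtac
Mcidas: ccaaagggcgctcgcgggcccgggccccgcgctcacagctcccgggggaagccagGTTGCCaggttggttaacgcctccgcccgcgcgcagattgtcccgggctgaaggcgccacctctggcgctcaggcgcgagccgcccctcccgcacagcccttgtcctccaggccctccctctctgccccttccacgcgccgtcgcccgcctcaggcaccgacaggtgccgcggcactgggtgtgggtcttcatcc
Pifo: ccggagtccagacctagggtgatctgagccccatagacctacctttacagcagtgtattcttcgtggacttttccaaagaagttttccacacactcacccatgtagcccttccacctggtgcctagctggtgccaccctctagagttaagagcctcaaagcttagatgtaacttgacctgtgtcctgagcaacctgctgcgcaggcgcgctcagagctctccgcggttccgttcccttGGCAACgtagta
Tekt1: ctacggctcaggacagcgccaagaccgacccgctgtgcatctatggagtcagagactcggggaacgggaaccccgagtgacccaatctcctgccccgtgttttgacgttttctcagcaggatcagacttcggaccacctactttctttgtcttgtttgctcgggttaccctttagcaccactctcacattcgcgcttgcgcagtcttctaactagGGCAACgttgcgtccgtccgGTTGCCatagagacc

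The letters lay 219 bases upstream of the start in Ccno, 195 in Mcidas and 12 in Pifo, counted from the first matched base, and Tekt1 held them in both orientations, at 35 and 15. Spag6l had a window without them. Of all 32851 RefSeq windows, 10.4% held the letters. Counted by gene, 12.1% of the tested genes with a window held them, as did 10 of the 15 measured cilia genes with a window (66.7%) and 2 of the 28 genes past the threshold outside the cilia list (7.14%). Of the 10 cilia genes with a match, 4 passed the threshold and 6 did not. Pifo, among the 4, and Sntn, among the 6, met the detection filter only with the help of the Mek1flox/flox arrays. Pifo therefore had to differ and does not count as a test. A match of 6 letters describes the sequence and does not show that a factor binds there.

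A further set of rises fell in genes listed for mesothelium, the cell sheet on the lung surface. Whether Mek1 was lost or kept in these cells was not checked. Of 13 measured, 2 rose (15.4%, where 0.421% of all genes rose), 0 fell, and the median was 0.34 (0.24 when only genes above background on all 8 arrays were tested, and 0.18 with the authors' deposited log2 values). Wfdc1, a secreted protein with a WAP domain, measured 7.13, 7.01, 7.28 and 7.53 in Mek1flox/flox lungs, against 6.28, 6.71, 5.79 and 6.33 in Mek1+/flox lungs. All Mek1flox/flox lungs lay above all others, controls being at 5.89 to 6.04. It rose 1.94-fold (log2 0.96 ± 0.16, limma adjusted p = 0.0303). Rspo1, a secreted protein that strengthens Wnt signals, measured 6.19, 6.47, 6.30 and 7.06 in Mek1flox/flox lungs, against 5.40, 5.63, 5.22 and 5.92 in Mek1+/flox lungs, and rose 1.95-fold (limma adjusted p = 0.0381). It was above background on 2 of 4 Mek1+/flox arrays.

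Upk3b, a uroplakin that marks mesothelium, was above background on every array and stood at 0.49 ± 0.12 (limma adjusted p = 0.11). The keratin Krt19 stood at 0.53 ± 0.14 (limma adjusted p = 0.14), and Wt1, the transcription factor of mesothelium, at 0.36 ± 0.17 with overlapping groups. The list mean was nearly the same in all Mek1flox/flox lungs, at 0.39, 0.34, 0.34 and 0.40 relative to the Mek1+/flox mean, against -0.05, 0.03, -0.10 and 0.12 in Mek1+/flox lungs. Rspo1 was the only 1 of 27 measured Wnt ligands, modulators and targets to pass (3.70%, where 0.421% of all genes rose). The median of the 27 was 0.02.

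In each of the 2 groups compared, the cilia list mean was highest on the arrays with male signal. The mesothelial list mean was not ordered in that way. It was 0.39 and 0.34 in Mek1flox/flox replicates 1 and 3, without male signal, and 0.34 and 0.40 in replicates 2 and 4, with it. Mek1flox/flox replicates 2 and 4, which had Y-linked signal, had cilia list means of 0.70 and 0.72, against 0.17 in Mek1+/flox replicate 2, which had it too. Among arrays without it the list stood at 0.33 and 0.53 in Mek1flox/flox replicates 1 and 3, against 0.07, -0.05 and -0.18 in Mek1+/flox replicates 1, 3 and 4. With the signal as a covariate 2 genes passed, in place of 47, and the median was 0.65 for the cilia list, 0.96 for the club cell list and 0.30 for the mesothelial list. Across the 35 genes that rose, Mek1flox/flox replicate 4 was the highest of its group in 20 and Mek1+/flox replicate 4 the lowest of its group in 17.

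**Figure D4:**
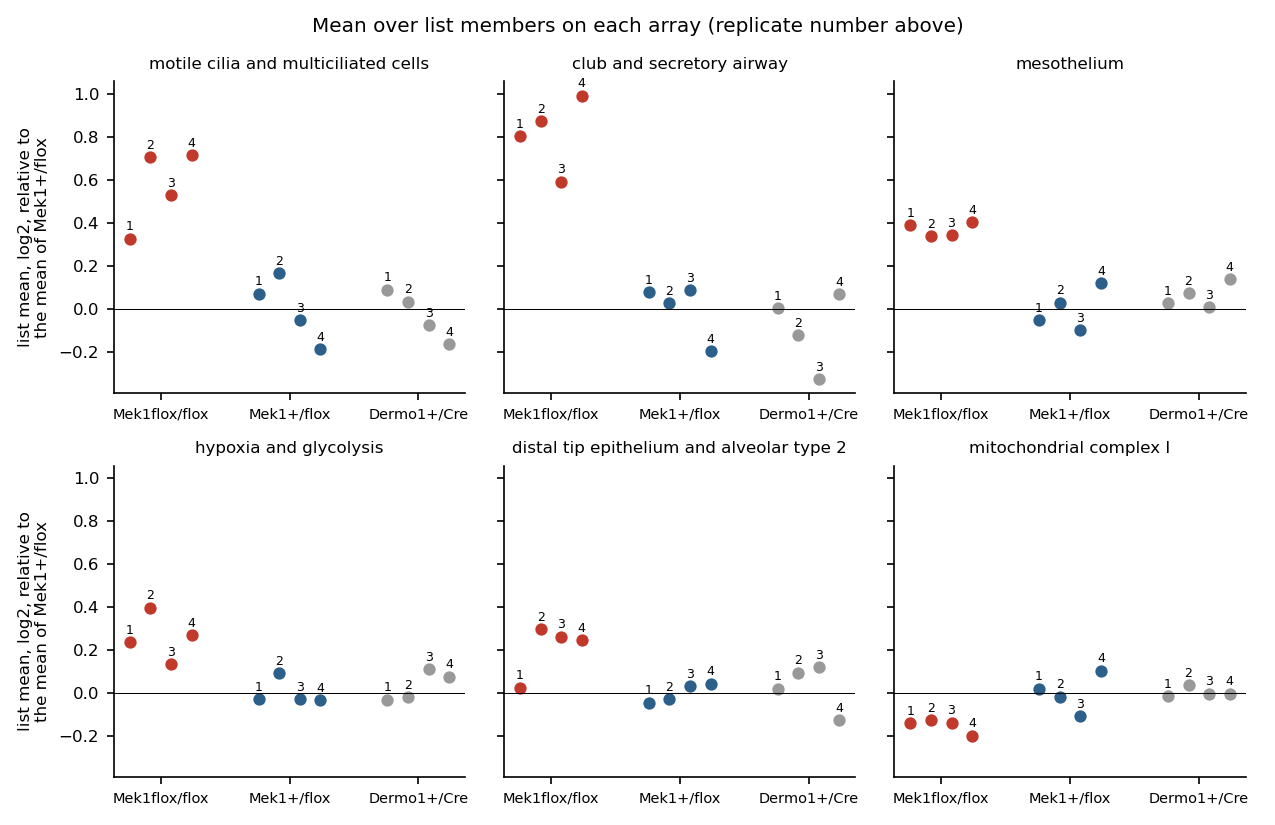
Mean log2 value over the measured members of 6 gene lists on each array (y axis, relative to the mean of the Mek1+/flox arrays), for Mek1flox/flox, Mek1+/flox and Dermo1+/Cre lungs, with the replicate number above each point. The cilia, club and mesothelial means of the 4 Mek1flox/flox arrays, from 0.33 to 0.99, lie above every other array of the same panel, and the distal list reaches 0.02 in Mek1flox/flox replicate 1.

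Distal and general epithelial genes held no call by limma. Of 22 measured genes of the distal tip and of alveolar type 2 cells, 0 passed, with a median of 0.17. An unadjusted p under 0.05 was reached by 7 of the 22, all 7 positive, where 11.8% of all genes reached it. Lamp3, a protein of surfactant-storing lamellar bodies, stood at 1.01 ± 0.22 (limma adjusted p = 0.0644) and the desaturase Scd1 at 0.66 ± 0.19 (limma adjusted p = 0.19). The surfactant genes Sftpb and Sftpc stood at 0.49 ± 0.18 and 0.23 ± 0.18, and the distal tip factors Sox9 and Etv5 at -0.12 ± 0.19 and 0.09 ± 0.14. Of these 6 genes, Lamp3 and Scd1 had groups that did not overlap. Of 14 alveolar type 1 genes 0 passed and 4 had an unadjusted p under 0.05, all 4 positive, against the same 11.8% (median 0.22). Of 12 basal and proximal progenitor genes 0 passed and 5 had an unadjusted p under 0.05, all 5 positive, again against 11.8% (median 0.21). Sox2, the factor of proximal airway, stood at 0.36 ± 0.15 (limma adjusted p = 0.35). Pan-epithelial adhesion genes had a median of 0.12 over 25 members, with 0 past the threshold and 4 at an unadjusted p under 0.05, all 4 positive.

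Within the pathway that was targeted, transcriptional readouts of ERK held no call by limma. Of 13 measured genes of ERK feedback and ETS output, 0 passed and the median was -0.02. An unadjusted p under 0.05 was reached by 3 of the 13, where 11.8% of all genes reached it. In 2 members the Mek1flox/flox values lay wholly above the Mek1+/flox values and in 1 wholly below, against 4.20% and 2.14% of all genes. Ier3, an immediate-early gene, stood at 0.65 ± 0.16 (limma adjusted p = 0.0887), Egr1, another, at -0.47 ± 0.13 (limma adjusted p = 0.16), and Dusp6, the ERK phosphatase induced by ERK itself, at 0.27 ± 0.09 (limma adjusted p = 0.23). The signs were therefore mixed among the 3 genes with the smallest p. By design epithelium keeps Mek1 in these lungs, and whole-lung RNA does not separate it from mesenchyme.

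Of 19 measured components of the MAPK pathway 0 passed, 2 had an unadjusted p under 0.05 (against 11.8% of all genes), and the median was 0.08. Among FGF ligands and receptors, Fgf1, a ligand that can bind all FGF receptors, measured 8.25 to 8.52 in 3 Mek1flox/flox lungs and 8.12 in replicate 3, against 7.63, 7.70, 7.82 and 7.61 in Mek1+/flox lungs. It rose 1.57-fold (log2 0.65 ± 0.10, limma adjusted p = 0.0281), and a second detected probe gave 0.24. It was the only 1 of 14 measured FGF ligands and receptors to pass (7.14%, where 0.421% of all genes rose). The mesenchymal ligands Fgf10, at 0.02 ± 0.10, and Fgf7, at -0.08 ± 0.16, had overlapping groups. Rasgrf1 and Kndc1 are in no list. Rasgrf1, an exchange factor that activates Ras, rose 1.61-fold (limma adjusted p = 0.0335), with 0.51 from a second detected probe, and Kndc1, another protein with a Ras exchange domain, rose 1.71-fold (limma adjusted p = 0.0335).

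Mycl, a transcription factor of the Myc family, had the smallest p among the rises and is given in full for that reason, a choice made after its values were seen. It measured 9.99, 9.97, 9.85 and 10.12 in Mek1flox/flox lungs, against 9.08, 9.17, 9.34 and 9.12 in Mek1+/flox lungs and 9.19 to 9.31 in controls. The spread within each group was small beside the gap between them. Mycl rose 1.74-fold (log2 0.80 ± 0.09, limma adjusted p = 0.00247).

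Among the remaining rises, Sgsm1, a modulator of small G proteins, measured 6.10, 5.85, 5.68 and 5.68 in Mek1flox/flox lungs, against 4.71, 5.21, 4.62 and 4.62 in Mek1+/flox lungs. It was above background on 0 Mek1+/flox arrays and on 2 control arrays, which lay at 4.93 to 5.77 and so overlapped the Mek1flox/flox lungs. It was at least 1.28-fold higher. Dipk2a, a kinase-domain protein of the secretory pathway, measured 5.85, 6.02, 5.72 and 6.27 in Mek1flox/flox lungs, against 5.24, 5.16, 5.10 and 4.81 in Mek1+/flox lungs with 0 arrays above background, and was at least 1.41-fold higher. Like Pifo, both genes passed the detection filter only with the help of the Mek1flox/flox arrays, and without these 3 genes the calls numbered 44, of which 32 were rises. The controls of Dipk2a, at 5.35 to 5.84, also reached into the range of the Mek1flox/flox lungs.

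Agtr1a, a receptor for angiotensin II, was at least 1.28-fold higher in Mek1flox/flox lungs (limma adjusted p = 0.0431). It was above background on 4 Mek1flox/flox arrays, 0 Mek1+/flox arrays and 4 control arrays, so that the low group was the Mek1+/flox one. Vldlr, a lipoprotein receptor, rose 1.49-fold (limma adjusted p = 0.0303), with 0.44 and 0.45 from its other detected probes. Acss1, a mitochondrial enzyme that makes acetyl-CoA from acetate, rose 1.61-fold (limma adjusted p = 0.0261), and Hspa2, a chaperone, 1.57-fold (limma adjusted p = 0.039). Igfbp6, which binds insulin-like growth factors and was at background on all but 1 Mek1+/flox array, rose 1.64-fold, and the membrane metalloprotease Adam28 1.74-fold (limma adjusted p = 0.0303 for both). The other genes that rose were Elapor1 (1.58-fold), the kinase Cdkl2 (1.53-fold) and Tuft1, tuftelin (1.37-fold).

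Among the 12 genes that fell, 3 were copies of the chemokine Ccl21, which draws CCR7-bearing dendritic cells and T cells and is made by lymphatic endothelium and lymphoid stroma. Ccl21a measured 7.35, 7.66, 7.96 and 7.63 in Mek1flox/flox lungs, against 8.75, 8.35, 8.66 and 8.49 in Mek1+/flox lungs, with controls at 8.53 to 8.94. It fell by 0.91 ± 0.14 on the log2 scale (limma adjusted p = 0.0261). Ccl21b measured 6.54, 6.64, 7.21 and 7.07 in Mek1flox/flox lungs, against 8.0, 7.74, 8.23 and 7.68 in Mek1+/flox lungs, and fell by 1.04 ± 0.18. Ccl21c measured 6.15, 6.25, 6.91 and 6.25 in Mek1flox/flox lungs, against 7.59, 7.14, 8.01 and 7.38 in Mek1+/flox lungs, and fell by 1.14 ± 0.20 (limma adjusted p = 0.0303 for both). Mek1flox/flox replicate 3 was the highest of its group for all 3. The copies are near-identical, so which of them each probe reports is uncertain and the 3 falls may not be separate observations.

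The other lymphatic genes did not pass. Of 9 measured members of the lymphatic list, the 3 Ccl21 copies fell (33.3%, where 0.144% of all genes fell) and 6 did not pass. The copies were put in this list by name, with results of these data known, and may not be separate observations. Their share therefore says nothing about lymphatic genes as a group. Lyve1, a hyaluronan receptor of lymphatic vessels, stood at -0.06 ± 0.19, Pdpn, which is also made by alveolar type 1 cells, at 0.22 ± 0.09, and Flt4, the receptor for VEGF-C, above background on 1 array of each group, at 0.06 ± 0.26.

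Genes of red cells fell in part. Slc4a1, the anion exchanger of the red cell membrane, measured 8.52, 8.97, 8.57 and 9.31 in Mek1flox/flox lungs, against 9.81, 9.67, 10.24 and 9.60 in Mek1+/flox lungs. It fell by 0.99 ± 0.19 (limma adjusted p = 0.0381). Trim10, a RING-finger protein of developing red cells, measured 5.12, 4.74, 4.86 and 5.42 in Mek1flox/flox lungs, against 6.41, 6.23, 6.95 and 6.03 in Mek1+/flox lungs. It was above background on 0 Mek1flox/flox arrays and on all others, and was at least 2.05-fold lower (limma adjusted p = 0.0261). Of the 17 measured genes of red cells and platelets, these were the only 2 to pass (11.8%, where 0.144% of all genes fell), and the median was -0.05. The haem synthesis enzyme Alas2 stood at -0.17 ± 0.16, the adult globins Hba-a1 and Hbb-b2 at -0.05 ± 0.11 and -0.40 ± 0.23, and the embryonic globins Hba-x and Hbb-bh1 at 0.41 ± 0.20 and 0.45 ± 0.27. Globin genes are near-identical copies, so the probe of one may read another.

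Angptl4, a secreted inhibitor of lipoprotein lipase that responds to hypoxia and fatty acids, measured 9.06, 8.97, 9.21 and 9.04 in Mek1flox/flox lungs, against 9.71, 9.86, 9.61 and 10.45 in Mek1+/flox lungs. Controls, at 9.45 to 9.64, also lay above every Mek1flox/flox lung. It fell by 0.84 ± 0.15 (limma adjusted p = 0.0311). Angptl4 is listed among hypoxia and glycolysis genes, of which 29 were measured and 24 were above 0, with a median of 0.25. An unadjusted p under 0.05 was reached by 15 of the 29, 14 of them positive, where 11.8% of all genes reached it. The list mean was 0.24, 0.40, 0.13 and 0.27 in Mek1flox/flox lungs, against -0.03, 0.09, -0.03 and -0.03 in Mek1+/flox lungs, without overlap. In that list Vldlr was the 1 gene that rose and Angptl4 the 1 that fell (together 6.90%, where 0.566% of all genes passed). Ddit4, an inhibitor of mTORC1 signalling, stood at 0.56 ± 0.12 (limma adjusted p = 0.0559), Bhlhe40 at 0.84 ± 0.18 (limma adjusted p = 0.0634) and the aldolase Aldoc at 0.98 ± 0.22 (limma adjusted p = 0.068). Vegfa stood at 0.25 ± 0.09 and Slc2a1, the glucose transporter, at 0.45 ± 0.16.

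Clu, the secreted chaperone clusterin, averaged 11.18 ± 0.14 in Mek1flox/flox lungs, with the highest at 11.32, against 11.71 ± 0.08 in Mek1+/flox lungs (SD, n = 4 each), with the lowest at 11.61, and fell by 0.53 ± 0.10 (limma adjusted p = 0.0335). Controls spanned 11.34 to 11.60. Asap2, a GTPase-activating protein for Arf, measured 6.37, 6.39, 6.35 and 6.02 in Mek1flox/flox lungs, against 6.60, 7.0, 7.07 and 7.15 in Mek1+/flox lungs, and fell by 0.67 ± 0.13 (limma adjusted p = 0.0431). A second probe, above background on all 12 arrays, gave -0.02, so the fall of Asap2 was seen with 1 of its 2 detected probes.

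Lactb, a mitochondrial protein, measured 6.89, 6.76, 6.62 and 6.88 in Mek1flox/flox lungs, against 7.09, 7.32, 7.46 and 7.34 in Mek1+/flox lungs, and fell by 0.52 ± 0.10 (limma adjusted p = 0.0458). Spin2c, a spindlin family member, measured 7.05, 7.02, 6.84 and 6.86 in Mek1flox/flox lungs, against 7.89, 7.38, 7.40 and 7.65 in Mek1+/flox lungs, and fell by 0.64 ± 0.12 (limma adjusted p = 0.0321). Olfr724, annotated as an odorant receptor, measured 5.59, 5.49, 5.37 and 5.05 in Mek1flox/flox lungs, against 5.93, 5.94, 6.11 and 5.99 in Mek1+/flox lungs, and fell by 0.62 ± 0.12 (limma adjusted p = 0.0348). In all 3 genes the groups were separated, and Olfr724 was dim, with 3 of 4 Mek1flox/flox arrays above background.

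Genes of the mesenchyme, the tissue in which Dermo1+/Cre acts, held no call by limma. Of 23 measured regulators of lung mesenchyme 0 passed, 0 had an unadjusted p under 0.05 (against 11.8% of all genes) and the median was -0.01, with values from -0.32 to 0.15. Of 12 smooth muscle genes (median -0.05) and 7 airway cartilage genes (median -0.08), 0 passed with or without adjustment. Of 41 collagens, laminins and elastic fibre genes 0 passed and 6 had an unadjusted p under 0.05, all 6 positive (median 0.09). Genes of DNA replication had the lowest median of the lists with at least 5 measured members, -0.09 over 32 members with 23 below 0, 0 past the threshold and 4 at an unadjusted p under 0.05, and its smallest p belonged to the cyclin Ccne2 at -0.29 ± 0.10 (limma adjusted p = 0.27). The mean of that list was -0.05, -0.07, -0.05 and -0.19 in Mek1flox/flox lungs, against -0.03, 0.02, 0.00 and 0.01 in Mek1+/flox lungs. Genes of mitosis had a median of -0.01 over 20 members, with 0 past the threshold and 1 at an unadjusted p under 0.05.

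**Figure D5:**
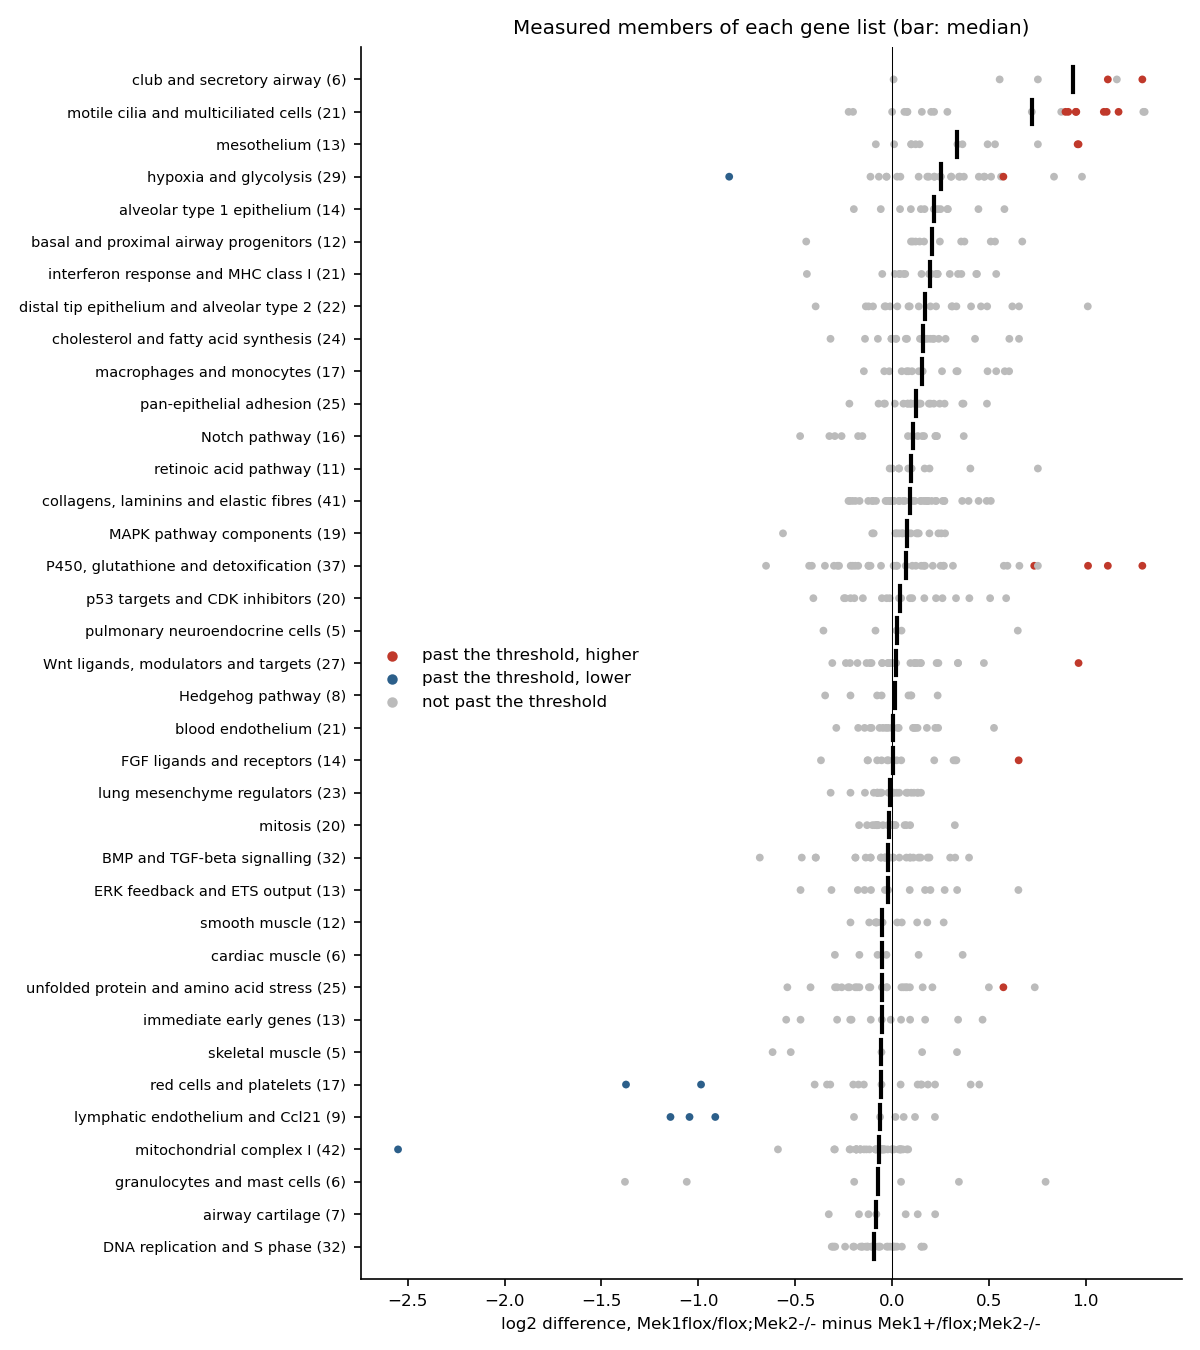
Log2 difference (x axis, Mek1flox/flox;Mek2-/- minus Mek1+/flox;Mek2-/-) of every measured member of the gene lists with at least 5 measured members (number in brackets; black bar, median), sorted by median. Red members rose, blue members fell and grey members did not pass; the club, cilia and mesothelial lists have the highest medians, 0.93, 0.72 and 0.34.

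Of the 41 lists, 11 held a gene past the threshold and 30 held none. Of the 47 genes past it, 22 were in a list, 15 of them higher and 7 lower, and 25 were in none. Some of the genes that passed are neighbours among the measured genes: Cyp2f2 and Cyp2s1, Mcidas and Ccno, Riiad1 and Tuft1, and Ccl21a and Ccl21b each stood 1 place apart, and Wfdc1 and Dnaaf1 stood 2 apart. Each of these 5 pairs moved in 1 direction, and Ccl21a and Ccl21b are near-identical copies. Among pairs farther apart, up to 20 places, Adam28 and Clu, 7 apart, moved in opposite directions and the others both rose. How often neighbours among all genes move together was not tested.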

How the data were processed

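Total RNA of 12 lung specimens was hybridised to bead arrays, per the labels. The authors' deposited scanner table gives a linear intensity per probe, with a deposited detection p-value, and per the file headers it was not normalized. The authors' deposited matrix holds log2 values with medians of 6.92 to 6.93, uncentred; against log2 intensities quantile-normalized here, the median absolute difference was 0.00386. The software they used is not given in the sources.

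Background was fitted from the detection p-values (normexp, offset 16), followed by log2 and quantile normalization (limma 3.58.1, R 4.3.3). Of 25697 probes, 11841 had a detection p below 0.01 on 4 or more arrays and were kept. Probes at exactly 4 arrays numbered 241 (median log2 5.21) and those just outside, at 3, numbered 310 (median 5.13). Of the probes, 23978 had 1 gene symbol, 0 had several and 1719 none. The brightest probe stood for a gene (2096 had several). The 3 group means were fitted over all 12 arrays (9 residual degrees of freedom), tested two-sided with limma and adjusted by Benjamini-Hochberg over 8311 genes at 0.05. The script was tested on simulated data.

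The comparison, its members and the 41 gene lists were chosen with earlier results of these data known. Named were Map2k1, Map2k2, Twist2, every gene past the threshold, and list members with the smallest p. Values per array were given for up to 16 rises and all falls whose groups do not overlap, passing over predicted symbols. Chromosomes and gene order came from RefSeq GRCm38.p6, which held 23962 of the probes' genes, and 33 of the 47 genes past the threshold had a promoter window. Replicate numbers were checked for pairing (correlations of deviations 0.01, 0.04, -0.15 and -0.22) and do not pair the samples. The number of arrays limits the precision.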

Additional observations from a re-analysis of the deposited data

Results flagged for a closer look

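In 7 of 110 groups of 4 arrays, 1 array lay far from the others by Dixon's test, where chance flags about 1 in 20 groups. Ccl21c was 6.91 in Mek1flox/flox replicate 3, against 6.15 to 6.25 in the other Mek1flox/flox lungs. Asap2 was 6.02 in Mek1flox/flox replicate 4, against 6.35 to 6.39 in the others. Vldlr was 10.14 in Mek1flox/flox replicate 2, against 9.97 to 10.0 in the others. Cyp2s1 was 6.18 in Mek1+/flox replicate 4, against 6.83 to 6.92 in the other Mek1+/flox lungs. Sgsm1 was 5.21 in Mek1+/flox replicate 2, against 4.62 to 4.71 in the others. The mean of the DNA replication list was -0.19 in Mek1flox/flox replicate 4, against -0.07 to -0.05 in the others, and that of the hypoxia list was 0.09 in Mek1+/flox replicate 2, against -0.03 in the others.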

How the results depend on the processing

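The reported 47 genes became 3 with only the 8 arrays compared, 80 without background correction, 84 with a normexp offset of 50, 25 with upper-quartile scaling, 30 without a detection filter, 75 with a mean-variance trend and robust fit, 2 with Y-linked signal as a covariate, 14 without the 2 brightest arrays and 2 at an adjusted p under 0.01. Without single replicates it ran from 2 to 44. With the replicate block it was 11, of which 10 were among the 47; the numbers do not pair the samples. The share of calls that were higher was 74.5% as reported, 64.0% with upper-quartile scaling, 66.7% with only the 8 arrays, 66.7% without a filter, 64.3% without the 2 brightest arrays, 50% with the Y-linked covariate, and from 33.3% to 80% without single replicates. The authors' log2 values gave 68, of which 34 were among the 47. Over the called genes, 573 of 1207 recomputed values lost the threshold and 0 reversed, the latter largely set by groups that did not overlap. Of the list medians, 58 of 1064 moved: the cilia median ran from 0.33 to 0.83, the club median from 0.68 to 1.11 and the mesothelial median from 0.18 to 0.42. The lower ends of the cilia and mesothelial ranges came with the authors' log2 values. The count of neighbours of Map2k1 past the threshold was 0 in every setting. Causes of these changes were not tested. Dim probes limit the result: 15 of the 47 genes were not above background on all 8 arrays.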

Other observations

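Immune and lipid genes whose differences are not given above also had medians above that of all genes, 0.01, with 0 members past the threshold of limma. Members with an unadjusted p under 0.05 numbered 6 of 21 interferon, 5 of 17 macrophage and 5 of 24 lipid synthesis genes, where 11.8% of all genes had such a p. Of 21 measured genes of the interferon response and MHC class I, 19 were above 0 and the median was 0.20, with the largest values in Usp18, a brake on interferon signalling, at 0.54 ± 0.21 (limma adjusted p = 0.34) and Irf9 at 0.44 ± 0.13 (limma adjusted p = 0.18). In 0 of the 21 did the Mek1flox/flox lungs lie wholly above the Mek1+/flox lungs. Of 17 macrophage genes the median was 0.16. The complement gene C1qc stood at 0.58 ± 0.13 (limma adjusted p = 0.068). The list mean was -0.04, 0.07, 0.36 and 0.48 in Mek1flox/flox lungs, against -0.01, -0.14, 0.20 and -0.05 in Mek1+/flox lungs, so the groups overlapped. Of 24 genes of cholesterol and fatty acid synthesis the median was 0.16.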
